A study of Mus musculus with 24 samples.

Results

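The 37 genes described here encode the proteins that bring pyruvate into the mitochondrion, oxidise it, run the tricarboxylic acid (TCA) cycle and feed glutamine and amino acid nitrogen into it. They were chosen by gene symbol from the 41710 genes of each expression table, and all 37 were found in both tables. Expression was measured by RNA sequencing in mouse embryonic fibroblasts (MEFs), in 24 libraries that fall into 8 groups of 3. Every group came from embryos homozygous for floxed Myc, floxed Mlx or both, and all carried a Cre recombinase fused to the estrogen receptor (CreER) under the ROSA26 promoter, so that the controls carry floxed alleles and CreER too. In WT cells the floxed alleles were left unexcised, and in MycKO, MlxKO and double knockout (DKO) cells 500 nM 4-hydroxytamoxifen (4OHT) had been used to excise Myc, Mlx or both. Each of these 4 genotypes was sequenced as primary MEFs and as MEFs immortalized with SV40 T-antigen before the excision. Cells of several embryos were pooled to make a line, and the sources do not say that the 3 RNAs of a group came from separate lines, so that p-values measure the spread between these 3 RNAs only. Myc, Mlx and both were excised in different floxed lines, and 4OHT was given for the knockouts but is not listed for WT. The study describes immortalized WT controls as kept without 4OHT, and ethanol vehicle as the alternative to 4OHT for MEFs. Gene loss therefore cannot be told apart from differences between lines, nor, in comparisons that use WT, from 4OHT. Primary MycKO and DKO cultures had stopped growing, and most immortalized MycKO cells were tetraploid, per the study's description.

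Pyruvate made in glycolysis enters the mitochondrial matrix through a heterodimeric carrier and is turned into acetyl-CoA by the pyruvate dehydrogenase complex, which kinases switch off and phosphatases switch on. Citrate synthase joins acetyl-CoA to oxaloacetate, and the cycle then recovers oxaloacetate while reducing NAD. Glutamine enters the cell through transporters such as Slc1a5 and, as glutamate, enters the cycle as 2-oxoglutarate. Myc, a basic helix-loop-helix leucine zipper transcription factor that pairs with Max, is known to raise the transcription of many genes of glutamine use and mitochondrial metabolism. Mlx pairs with MondoA and ChREBP, which respond to glucose metabolites, and both families of dimers bind the E-box CACGTG.

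The libraries held between 15986856 and 20966163 reads on genes, so that 3 reads were worth between 0.145 and 0.196 CPM (read counts scaled for depth, with a further scaling between libraries by the authors). Every member exceeded that in every library. The targeted genes were examined first. Myc was at 100.1, 89.8 and 91.8 CPM in WT, 85.6, 89.6 and 87.3 in MlxKO, 25.8, 26.8 and 26.8 in MycKO and 21.6, 22.9 and 19.9 in DKO of the primary libraries. In immortalized cells Myc was at 48.1, 39.9 and 177 CPM in WT, 72.4, 82.8 and 79.5 in MlxKO, 17.2, 10.98 and 9.96 in MycKO and 8.02, 5.77 and 4.25 in DKO. Mlx was at 26.02, 20.5 and 24.5 CPM in WT, 13.01, 13.5 and 13.97 in MlxKO, 21.1, 17.3 and 20.5 in MycKO and 11.8, 11.99 and 9.73 in DKO of the primary libraries, and at 25.1, 23.5 and 20.5 CPM in WT, 17.03, 12.4 and 12.1 in MlxKO, 27.8, 25.1 and 22.4 in MycKO and 14.5, 18.04 and 17.7 in DKO of the immortalized ones. Each targeted gene was lower in all libraries in which it had been excised than in all WT libraries of its table, although the fall of Mlx in immortalized DKO cells missed the threshold at -0.44 ± 0.16 (adjusted p = 0.069). The loxP sites flank only some exons of each gene, per the study's description, and counts per exon were not analysed here. WT library 3 of the immortalized cells stood apart, with correlations of 0.943 and 0.950 with the other WT libraries, which correlated with each other at 0.992 (log2(CPM + 1) over all genes tested), and it also held the most Myc. Counts of calls against immortalized WT are therefore given with and without it, as are the values of called members whose call was lost without it. Members that passed only without it are counted but not named. Statements that a member passed in no immortalized knockout refer to the fit with all libraries. The 10 fibroblast markers were at 1 CPM or more in every library, except Lum in immortalized MycKO cells (0.102 to 1.01 CPM). A list of 6 macrophage markers summed to between 111 and 206 CPM in primary WT, 17.8 to 20.8 in MycKO and 34.5 to 70.1 in DKO, with 6 of 6 lower in MycKO and DKO, and to at most 5.80 CPM in immortalized cells, where Adgre1 and Tyrobp were at 0 in every library. All 8 proliferation markers fell in all 3 primary knockouts (sums of 1016 to 1087 CPM in WT, 793 to 834 in MlxKO, 617 to 748 in MycKO and 480.4 to 516 in DKO), whereas in immortalized cells 0 of 8 passed the threshold in MycKO or DKO by limma, edgeR or DESeq2, and 0 had an unadjusted limma p under 0.05, and 2 of 8 fell and 1 rose in MlxKO. Of the fibroblast markers 8 rose and 1 fell in primary MycKO and 7 rose in DKO. In immortalized cells 3 rose and 3 fell in MycKO, 3 rose in MlxKO, and 1 rose and 1 fell in DKO. In primary MycKO cells the muscle gene Des was lower (27.9 to 32.5 CPM, and 76.6 to 85.5 in WT). The endothelial gene Kdr was lower too (3.94 to 6.15 and 12.6 to 12.8), and each was the only gene of its list tested. Of 3 adipocyte genes tested 1 rose and 1 fell. Lpl was higher (110.2 to 140.1 and 50.7 to 60.02) and Fabp4 lower (3.34 to 4.98 and 7.82 to 8.52). Myod1 and Cidec were at 0 in both groups and Tie1 and Adipoq were at 0 in WT. Of 4 neural and glial markers 2 rose and 2 fell in primary MycKO cells. The part of proliferation and of RNA of other cell types in the primary results below was not tested.

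Per length of exon, the most abundant members in primary WT cells were Mdh2 at 46.9 ± 2.34 CPM per kb (SD, n = 3), Cs at 45.5 ± 0.493, Pdha1 at 43.1 ± 0.597 and Glud1 at 40.5 ± 0.378. Mdh2 and Cs did not differ beyond their spread. The 3 least abundant were regulators of the pyruvate dehydrogenase complex, Pdk2 at 0.854 ± 0.0749 CPM per kb, Pdp2 at 1.79 ± 0.168 and Pdk4 at 2.03 ± 0.272, of which Pdp2 and Pdk4 did not differ beyond their spread. The length here is that of all exons of a gene joined.

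Much of this pathway was lower in primary cells that lacked Myc, whether Mlx was present or not, and few members passed the threshold in cells that lacked Mlx alone. In primary MycKO cells 21 of the 37 genes fell and 1 rose, where 21.9% of all 13101 genes tested fell and 20.4% rose (limma, adjusted p under 0.05). In primary DKO cells 22 fell and 5 rose, against 25.5% and 24% of all genes. In primary MlxKO cells 2 fell and 1 rose, against 5.14% and 3.75%, a share near that background. Over the 37 genes the median log2 fold change was -0.26 for DKO, -0.21 for MycKO and -0.01 for MlxKO, while over all genes tested it was 0.00 in each. When reads were divided by library totals in place of the deposited scaling, 26 members fell and 1 rose in MycKO and 25 fell and 3 rose in DKO cells. That scaling moved the median of all genes too, by -0.095 in MycKO and -0.077 in DKO. Of all genes 45.1% and 51% then passed, and 31.4% and 37.2% of these rose.

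In immortalized cells the share that passed in either direction was lower in DKO than in the single knockouts for the members and for all genes alike. Of the members and of all genes, 40.5% and 48% passed in MycKO, 32.4% and 38.9% in MlxKO, and 13.5% and 18.9% in DKO. In MycKO cells 13 members fell and 2 rose, against 23.5% and 24.4% of 12880 genes tested. In MlxKO cells 10 fell and 2 rose, against 19.9% and 19.1%. In DKO cells 5 fell and 0 rose by limma, edgeR or DESeq2 (2 rose at an unadjusted limma p under 0.05), against 8.51% and 10.4%. Without WT library 3 the counts were 16 fallen and 3 risen in MycKO, 14 and 4 in MlxKO, and 5 and 0 in DKO. Of all genes, 54%, 46.8% and 22% then passed in either direction. Scaling by library totals moved the median of all genes by 0.15 on the log2 scale in immortalized MlxKO cells, where 4 members then fell and 3 rose. The values of that group summed to between 915691 and 916232 CPM, the lowest sums of all groups.

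**Figure D1:**
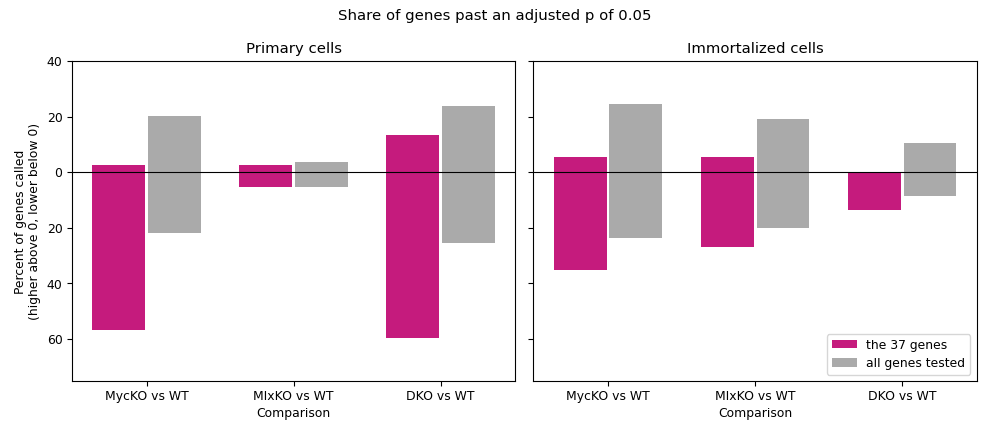
Percent of the 37 genes (magenta) and of all genes tested (grey) past an adjusted p of 0.05, higher above 0 and lower below 0, for each knockout against WT in primary (left) and immortalized (right) cells. In primary MycKO and DKO cells 56.8% and 59.5% of the 37 genes were lower, beside 21.9% and 25.5% of all genes.

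The comparisons of primary MycKO and of primary DKO with WT share the WT libraries, so that a gene that passed in both does not rest on separate controls. Genes that fell in each were Cs, Idh3a, Idh3g, Suclg2, Fh1 and Mdh2 of the cycle, all 4 of the cytosolic and NADP-linked counterparts (Aco1, Idh1, Idh2 and Mdh1), Me2, and Got1, Got2, Gpt2 and Slc1a5. Mpc2, Pdhx, Ogdh and Suclg1 passed the threshold in none of the 6 knockout comparisons with WT.

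**Figure D2:**
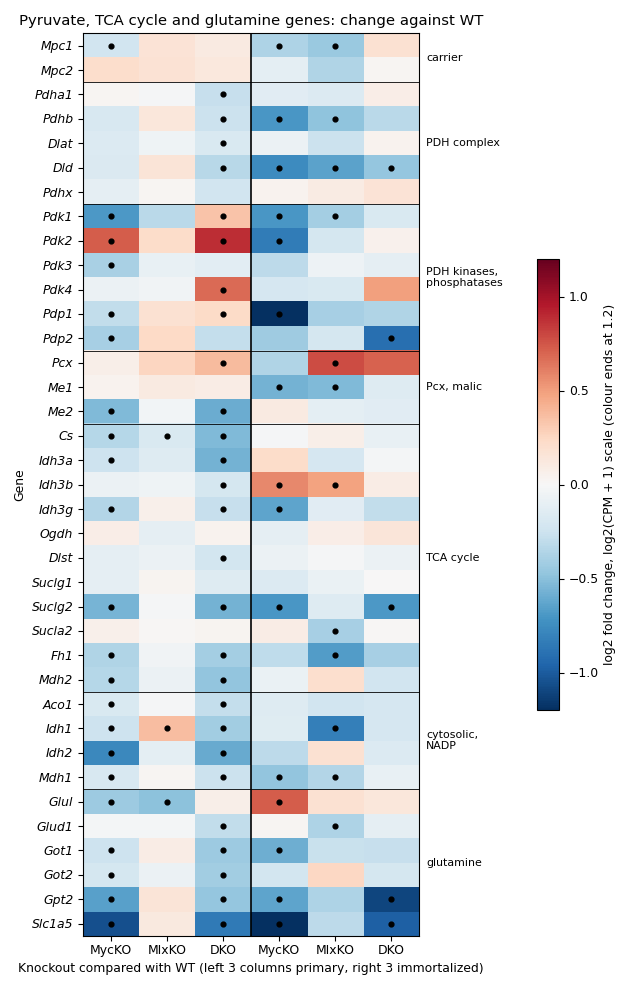
Log2 fold change against WT, on the log2(CPM + 1) scale, of the 37 genes (rows, grouped by role) in primary (left 3 columns) and immortalized (right 3 columns) knockouts, with a black dot where the adjusted p was under 0.05. Blue is lower and red higher than WT, and the colours end at 1.2, so that the -1.74 of Slc1a5 in immortalized MycKO cells has the end colour. Most dots in the primary MycKO and DKO columns are blue, and the primary MlxKO column holds 3 dots.

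The mitochondrial pyruvate carrier is made of Mpc1 and Mpc2. Mpc1 (ENSMUSG00000023861; GRCm39 chr17:8501736-8516498, plus strand) was at 28.7, 28.3 and 28.3 CPM in WT, 29.96, 31.04 and 35.5 in MlxKO, 25.7, 23.5 and 23.5 in MycKO and 32.8, 31.0 and 28.6 in DKO of the primary libraries. Only the MycKO libraries all lay below WT, by -0.23 ± 0.08 (adjusted p = 0.039) on the log2 scale (± SE, as for all fold changes below). This call was lost without WT library 1, 2 or 3, MycKO library 2 or 3 or DKO library 2 (between -0.23 and -0.21), or in a fit of the compared groups alone (-0.23). In immortalized cells Mpc1 was at 40.5, 37.3 and 32.6 CPM in WT, 27.5, 26.9 and 25.3 in MlxKO, 32.7, 24.9 and 27.5 in MycKO and 36.6, 40.3 and 49.4 in DKO. Both single knockouts were lower, by -0.45 ± 0.14 (adjusted p = 0.025) in MlxKO and -0.37 ± 0.14 (adjusted p = 0.048) in MycKO, but DKO was not, at 0.18 ± 0.14 (adjusted p = 0.38). The MlxKO call was lost without WT library 1 or 2 or MlxKO library 2 or 3 (between -0.46 and -0.38), or with scaling by library totals (-0.28). The MycKO call was lost without WT library 1 or 2, MlxKO library 1, 2 or 3, MycKO library 2 or 3 or DKO library 2 (between -0.37 and -0.28), or by edgeR (-0.36), with median-ratio scaling (-0.36), with no filter on low values (-0.37), in a fit of the compared groups alone (-0.37) or with scaling by library totals (-0.36). Against both single knockouts DKO was higher, by 0.55 ± 0.14 (adjusted p = 0.011) over MycKO and 0.63 ± 0.14 (adjusted p = 0.0058) over MlxKO, the first of which was lost without MycKO library 2 or DKO library 3 (between 0.43 and 0.46). Mpc2 did not pass in any knockout against WT, with log2 fold changes between -0.36 and 0.21. Gm64545 covers 21.4% of the exon bases of Mpc1 on the opposite strand, and no values were at hand for it.

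The pyruvate dehydrogenase complex holds 5 of the members: the E1 subunits Pdha1 and Pdhb, the E2 acetyltransferase Dlat, the E3 dihydrolipoamide dehydrogenase Dld, which the 2-oxoglutarate dehydrogenase complex also uses, and the E3-binding protein Pdhx. In primary cells 0 of the 5 passed in MycKO by limma, edgeR or DESeq2, although 3 were lower at an unadjusted limma p under 0.05, and 4 of 5 fell in DKO. Pdha1 (ENSMUSG00000031299) was at 229.9, 228 and 234 CPM in WT, 233, 222 and 229 in MlxKO, 229, 236 and 238 in MycKO and 188, 192 and 191 in DKO. The WT, MlxKO and MycKO ranges overlapped, and the DKO libraries all lay below them, -0.27 ± 0.05 (adjusted p = 0.0003) against WT and -0.30 ± 0.05 (adjusted p = 0.00041) against MycKO. Dld (ENSMUSG00000020664) was at 100.2, 97.2 and 104 CPM in WT, 108, 112 and 117 in MlxKO, 80.3, 103 and 85.4 in MycKO and 84.01, 79.96 and 74.8 in DKO of the primary libraries, with DKO lower at -0.33 ± 0.08 (adjusted p = 0.0026) and 1 MycKO library inside the WT range. Pdhb and Dlat fell by smaller amounts in DKO, -0.26 ± 0.08 (adjusted p = 0.015) and -0.18 ± 0.07 (adjusted p = 0.034). The call of Pdhb was lost without WT library 1 or 3 or DKO library 3 (between -0.24 and -0.23), and that of Dlat without WT library 1 or 3 or DKO library 2 or 3 (between -0.17 and -0.15).

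In immortalized cells Dld and Pdhb fell in both single knockouts. Dld was at 155, 130.2 and 180.4 CPM in WT, 110.5, 93.8 and 92.3 in MlxKO, 84.7, 93.1 and 94.7 in MycKO and 95.4, 126 and 114 in DKO. All 9 knockout libraries lay below the lowest WT library, and the change was -0.76 ± 0.14 (adjusted p = 0.00092) in MycKO, -0.64 ± 0.14 (adjusted p = 0.0042) in MlxKO and -0.47 ± 0.14 (adjusted p = 0.035) in DKO. Without WT library 3 these were -0.64, -0.53 and -0.35. The DKO call was lost without WT library 1 or 3, MlxKO library 3, MycKO library 3 or DKO library 1 or 3 (between -0.49 and -0.35), or with no filter on low values (-0.47) or in a fit of the compared groups alone (-0.47). Pdhb (ENSMUSG00000021748) was at 99.8, 92.0 and 100.4 CPM in WT, 70.97, 64.3 and 73.8 in MlxKO, 69.3, 53.7 and 56.7 in MycKO and 66.8, 78.8 and 88.1 in DKO. It too was below WT in all 9 knockout libraries, -0.70 ± 0.13 (adjusted p = 0.00086) in MycKO and -0.48 ± 0.13 (adjusted p = 0.012) in MlxKO, while DKO missed the threshold at -0.33 ± 0.13 (adjusted p = 0.09). The MlxKO call was lost without MlxKO library 2 (-0.42), or with scaling by library totals (-0.31). Pdha1, Dlat and Pdhx passed in none of the 3 comparisons. Pdhb overlaps, over 27.8% of its exon bases, the gene Pxk on the opposite strand, which passed in none of these comparisons.

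The kinases Pdk1 to Pdk4 phosphorylate and switch off the complex, and the phosphatases Pdp1 and Pdp2 reverse this. Of these 6 genes, 4 fell and 1 rose in primary MycKO cells, and 4 rose and none passed downward in DKO. Pdk2 (ENSMUSG00000038967; GRCm39 chr11:94914929-94932242, minus strand) was at 6.94, 8.09 and 7.01 CPM in WT, 9.81, 8.97 and 7.5 in MlxKO, 13.9, 11.3 and 13.3 in MycKO and 13.7, 14.7 and 14.8 in DKO. MycKO and DKO libraries all lay above every WT library, and Pdk2 rose by 0.73 ± 0.12 (adjusted p = 9.3e-05) and 0.88 ± 0.12 (adjusted p = 1e-05). It was the only member that rose in primary MycKO cells. In immortalized cells Pdk2 was at 8.9, 13.6 and 6.94 CPM in WT, 7.89, 8.01 and 8.22 in MlxKO, 3.78, 5.27 and 5.63 in MycKO and 9.5, 9.67 and 10.4 in DKO, and it fell in MycKO, -0.84 ± 0.21 (adjusted p = 0.0054) and -1.04 without WT library 3. The WT libraries spread widely, all MycKO libraries lay below them, and MlxKO and DKO overlapped with them. Pdk2 shares 33.9% of its exon bases with genes on the opposite strand, chiefly Samd14. Samd14 rose by 0.62 and 0.82 in primary MycKO and DKO cells, and by 0.51, 0.58 and 0.80 in immortalized MycKO, MlxKO and DKO cells. The kit keeps strand, but whether the counting used it is not given in the sources used here. The part of Samd14 reads in the results for Pdk2, primary and immortalized, was not tested.

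Because both Myc and Mlx dimers bind the E-box, the promoter windows of the members were searched for CACGTG, which reads the same on both strands. RefSeq windows of 250 bases before to 50 after a gene start (GRCm38.p6) were at hand for 33 of the 37 members, 44 windows in all; Pdp1, Idh3a, Me2 and Slc1a5 had none. The 4 members with the E-box were Pdk2, Pdp2, Pcx and Ogdh. That is 6 of 44 windows, or 13.6%, beside 7.15% of all 32851 windows and 9.78% of the windows of genes tested in primary cells. By gene it is 4 of 33, beside 2187 of 27025 gene symbols. Windows of a gene can overlap, and the Ogdh matches at -141 and -162 are the same site in overlapping windows. The related CACGCG, searched on both strands, lay in 11.4% of the members' windows (Glud1, Idh1, Idh3g, Pdk3 and Suclg1) and in 9.27% of all windows, and no member window held both. Of the 20 windows of members that fell in primary MycKO cells 1 held CACGTG, that of Pdp2. Of the 24 windows of the others 5 did, all of them of Ogdh, Pdk2 or Pcx. Over all genes tested in primary cells, 10.2% of the windows of genes lower in MycKO held it. The share was 9.38% for genes that were higher and 9.75% for those not called. The E-boxes of Pdk2, Pdp2 and Pcx are shown since these genes passed the threshold in a knockout, with the motif in capitals, 5′ to 3′ on the strand of the gene.
Pdp2, chr8:104591241-104591270, plus strand: ggggaagagcccCACGTGacgacctactgg
Pcx, chr19:4510222-4510241, plus strand: ccCACGTGaggctttcaaga
Pdk2, the whole 250 bases before its start, chr11:95041372-95041621, minus strand: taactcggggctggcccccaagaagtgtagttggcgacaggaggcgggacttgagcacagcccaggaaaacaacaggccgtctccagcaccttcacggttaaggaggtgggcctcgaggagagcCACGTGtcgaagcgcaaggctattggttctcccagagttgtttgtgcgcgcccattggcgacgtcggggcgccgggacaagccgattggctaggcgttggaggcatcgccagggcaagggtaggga
Idh2, chr7:80115351-80115600, minus strand, shown beside it as the member with a window that fell most in primary MycKO cells, holds neither motif: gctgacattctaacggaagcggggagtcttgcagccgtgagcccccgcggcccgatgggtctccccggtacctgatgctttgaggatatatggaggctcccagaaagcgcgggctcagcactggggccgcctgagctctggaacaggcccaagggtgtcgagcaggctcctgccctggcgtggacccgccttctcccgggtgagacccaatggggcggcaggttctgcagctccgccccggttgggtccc
Counted from the gene start, the E-box lay at position -126 in Pdk2, -219 in Pdp2 and -248 in Pcx. A match to these letters is a description of the sequence and not a binding site.

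Pdp1 (ENSMUSG00000049225), the calcium-responsive phosphatase, was at 16.1, 15.9 and 17.7 CPM in WT, 19.3, 18.8 and 18.6 in MlxKO, 12.6, 13.5 and 13.7 in MycKO and 18.4, 20.7 and 19.7 in DKO of the primary libraries. MycKO libraries lay below and DKO libraries above all WT libraries, -0.30 ± 0.09 (adjusted p = 0.01) and 0.23 ± 0.09 (adjusted p = 0.036). The rise in DKO was lost without WT library 1 or 2 or DKO library 2 or 3 (between 0.19 and 0.23), or with scaling by library totals (0.15). In immortalized cells Pdp1 was at 54.9, 57.5 and 65.2 CPM in WT, 49.5, 40.9 and 43.6 in MlxKO, 31.6, 21.4 and 23.4 in MycKO and 37.8, 47.8 and 53.1 in DKO. Its fall in MycKO, -1.20 ± 0.16 (adjusted p = 0.00011), was larger than that of every member but Slc1a5. DKO libraries lay between WT and MycKO, at -0.36 ± 0.16 (adjusted p = 0.14). Pdp2 (ENSMUSG00000048371), the second phosphatase, was at 9.82, 11.5 and 9.82 CPM in WT, 14.5, 9.93 and 13.4 in MlxKO, 7.37, 7.72 and 7.82 in MycKO and 7.97, 7.66 and 9.45 in DKO in primary cells and at 16.9, 19.3 and 13.1 CPM in WT, 13.01, 14.01 and 14.6 in MlxKO, 11.1, 11.9 and 12.7 in MycKO and 10.7, 8.03 and 6.41 in DKO in immortalized ones. It fell in primary MycKO at -0.40 ± 0.13 (adjusted p = 0.023) and in immortalized DKO cells at -0.91 ± 0.18 (adjusted p = 0.0055). The first call was lost without WT library 2 or MycKO library 1 (between -0.37 and -0.33), or with no filter on low values (-0.40), and the second in a fit of the compared groups alone (-0.91).

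Pdk1, named after its values were seen because its sign changed between genotypes, was at 34.7, 33.9 and 30.7 CPM in WT, 27.1, 28.4 and 23.4 in MlxKO, 17.2, 24.5 and 19.4 in MycKO and 42.8, 41.9 and 41.9 in DKO of the primary libraries. The MlxKO libraries all lay below WT without passing by limma, at -0.32. All MycKO libraries lay below and all DKO libraries above WT, -0.69 ± 0.11 (adjusted p = 8.2e-05) and 0.34 ± 0.11 (adjusted p = 0.015), and DKO exceeded MycKO by 1.03 ± 0.11 (adjusted p = 3e-06). The rise over WT was lost without WT library 3 (0.29), or with scaling by library totals (0.26), and the difference from MycKO was kept under every alternative. In immortalized cells Pdk1 was lower in MycKO (-0.70 ± 0.13, adjusted p = 0.0011) and MlxKO (-0.41 ± 0.13, adjusted p = 0.029), with DKO at -0.19 ± 0.13 (adjusted p = 0.33). The MlxKO call was lost without WT library 1 or 2 or MlxKO library 2 or 3 (between -0.41 and -0.35), or in a fit of the compared groups alone (-0.41) or with scaling by library totals (-0.24). Pdk4, the starvation-responsive kinase, rose in primary DKO cells, 0.68 ± 0.14 (adjusted p = 0.00081), from between 6.52 and 8.41 CPM in WT to between 11.2 and 14.6. Pdk3 fell in primary MycKO cells, -0.39 ± 0.09 (adjusted p = 0.0032).

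Pyruvate carboxylase (Pcx) makes oxaloacetate from pyruvate, and the malic enzymes, cytosolic Me1 and mitochondrial Me2, turn malate back into pyruvate. Pcx rose in primary DKO cells, Me2 fell in primary MycKO and DKO cells, and Me1 fell in immortalized single knockouts. Pcx (ENSMUSG00000024892) was at 19.5, 17.5 and 16.7 CPM in WT, 20.4, 20.5 and 24.1 in MlxKO, 20.8, 14.8 and 21.5 in MycKO and 23.8, 22.98 and 24.1 in DKO of the primary libraries. The DKO libraries lay above WT, 0.38 ± 0.12 (adjusted p = 0.014), and MlxKO did too without passing, 0.26 ± 0.12 (adjusted p = 0.19). The DKO call was lost without WT library 3 (0.34). In immortalized cells, where Pcx was at 25.5, 33.96 and 14.0 CPM in WT, 35.2, 45.4 and 41.1 in MlxKO, 15.2, 19.2 and 19.02 in MycKO and 48.6, 34.2 and 33.6 in DKO, it rose in MlxKO (0.78 ± 0.26, adjusted p = 0.031). WT library 3 held the least Pcx of all, and the call was lost without WT library 1 or 3 or MlxKO library 2 or 3 (between 0.44 and 0.85), or with no filter on low values (0.78) or in a fit of the compared groups alone (0.78), being 0.44 without WT library 3. DKO exceeded MycKO by 1.07 ± 0.26 (adjusted p = 0.0079), a comparison that uses no WT library.

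Me2 (ENSMUSG00000024556) was at 54.1, 57.6 and 53.6 CPM in WT, 48.7, 56.6 and 55.97 in MlxKO, 36.9, 41.1 and 35.3 in MycKO and 35.2, 36.02 and 37.4 in DKO of the primary libraries. All MycKO and DKO libraries lay below all WT libraries, -0.53 ± 0.08 (adjusted p = 4.2e-05) and -0.59 ± 0.08 (adjusted p = 1.2e-05), and MlxKO overlapped with WT. In immortalized cells Me2 was at 74.4, 70.9 and 83.3 CPM in WT, 76.8, 62.9 and 71.3 in MlxKO, 85.3, 80.7 and 80.5 in MycKO and 63.8, 73.98 and 69.4 in DKO and passed in none of the knockouts. Me1 (ENSMUSG00000032418) was at 138, 126 and 145 CPM in WT, 143, 145 and 153 in MlxKO, 130.0, 158 and 135 in MycKO and 148, 154 and 135 in DKO in primary cells, where no knockout passed, and at 246, 217 and 205 CPM in WT, 159, 144 and 156 in MlxKO, 144, 148 and 157 in MycKO and 174, 211 and 214 in DKO in immortalized ones. There MycKO and MlxKO were lower, -0.56 ± 0.11 (adjusted p = 0.0013) and -0.53 ± 0.11 (adjusted p = 0.0032), and DKO was not, -0.16 ± 0.11 (adjusted p = 0.32). Me1 has 35.5% of its exon bases in common with genes of the opposite strand, chiefly Rwdd2a, which did not exceed 1.58 CPM in any library.

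Of the 11 TCA cycle enzymes, 6 fell in primary MycKO cells, 8 fell in DKO and 1, Cs, in MlxKO, and 0 rose in these 3 by limma, edgeR or DESeq2, with 0 higher at an unadjusted limma p under 0.05. Suclg2 (ENSMUSG00000061838), the GDP-forming beta subunit of succinyl-CoA ligase, was at 36.01, 37.9 and 34.7 CPM in WT, 35.98, 36.8 and 34.3 in MlxKO, 24.7, 22.6 and 25.8 in MycKO and 26.01, 22.6 and 23.7 in DKO. WT and MlxKO libraries overlapped, and all MycKO and DKO libraries lay below them, -0.55 ± 0.08 (adjusted p = 3.9e-05) and -0.57 ± 0.08 (adjusted p = 2.3e-05). In immortalized cells it was at 46.97, 45.6 and 34.7 CPM in WT, 37.7, 37.8 and 37.6 in MlxKO, 25.6, 26.03 and 25.2 in MycKO and 23.5, 24.9 and 29.2 in DKO, with the same division, -0.70 ± 0.13 (adjusted p = 0.001) in MycKO and -0.68 ± 0.13 (adjusted p = 0.0042) in DKO, the latter lost in a fit of the compared groups alone (-0.68). The alpha subunit Suclg1, which both ligases share, passed nowhere, and Sucla2, the ADP-forming beta subunit, fell in immortalized MlxKO cells, -0.40 ± 0.12 (adjusted p = 0.019), a call lost without MlxKO library 2 or 3 (between -0.40 and -0.35), or with scaling by library totals (-0.23).

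Fh1 (ENSMUSG00000026526), fumarate hydratase, was at 76.4, 71.3 and 75.97 CPM in WT, 73.1, 67.7 and 76.7 in MlxKO, 57.8, 62.7 and 53.5 in MycKO and 58.2, 60.5 and 49.8 in DKO of the primary libraries. It fell in MycKO and DKO, -0.36 ± 0.08 (adjusted p = 0.0022) and -0.41 ± 0.08 (adjusted p = 0.00064). In immortalized cells, at 95.4, 81.4 and 119 CPM in WT, 59.02, 59.6 and 64.3 in MlxKO, 94.4, 69.96 and 73.3 in MycKO and 67.3, 80.4 and 74.8 in DKO, all MlxKO libraries lay below WT and Fh1 fell there, -0.67 ± 0.15 (adjusted p = 0.0048). The other knockouts had smaller values that did not pass. Idh3g (ENSMUSG00000002010), a regulatory subunit of the NAD-linked isocitrate dehydrogenase, was at 57.6, 54.9 and 62.6 CPM in WT, 56.7, 63.3 and 63.3 in MlxKO, 44.4, 48.6 and 43.4 in MycKO and 47.4, 50.2 and 46.3 in DKO in primary cells and fell in MycKO and DKO, -0.35 ± 0.07 (adjusted p = 0.0012) and -0.28 ± 0.07 (adjusted p = 0.0056). In immortalized cells it was at 83.9, 74.5 and 82.2 CPM in WT, 76.4, 68.2 and 74.6 in MlxKO, 54.5, 49.1 and 50.1 in MycKO and 56.4, 71.2 and 69.03 in DKO, and fell in MycKO, -0.64 ± 0.11 (adjusted p = 0.00065). Srpk3, which covers 27.9% of its exon bases on the opposite strand, did not exceed 0.511 CPM.

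Of the other subunits of that dehydrogenase, Idh3b rose in immortalized MycKO and MlxKO, 0.57 ± 0.14 (adjusted p = 0.0065) and 0.48 ± 0.14 (adjusted p = 0.02), the latter lost without WT library 1 or MlxKO library 2 or 3 (between 0.39 and 0.45). In primary DKO cells Idh3b fell, -0.22 ± 0.08 (adjusted p = 0.039), a call lost without WT library 1 or 2 or DKO library 1, 2 or 3 (between -0.23 and -0.17), or with no filter on low values (-0.22). The catalytic subunit Idh3a passed in no immortalized knockout, with WT libraries from 109 to 229.8 CPM, the highest being library 3. In primary cells Idh3a fell in MycKO and DKO, -0.25 ± 0.07 (adjusted p = 0.0067) and -0.57 ± 0.07 (adjusted p = 3.5e-06). Acsbg1, which covers 22.9% of the exon bases of Idh3a on the opposite strand, was at 0.898 to 4.58 CPM in primary cells. Its log2 fold change there was 0.18 in MycKO and -0.88 in DKO, and its part in the result for Idh3a was not tested. Cs, named after its values were seen as the enzyme that starts the cycle, was at 289.6, 292 and 285 CPM in WT, 264, 247 and 254 in MlxKO, 233, 221 and 230.3 in MycKO and 203, 202 and 195 in DKO of the primary libraries. The 4 groups did not overlap and stood in the order WT, MlxKO, MycKO and DKO, with changes against WT of -0.18 ± 0.05 (adjusted p = 0.043), -0.34 ± 0.05 (adjusted p = 7.2e-05) and -0.53 ± 0.05 (adjusted p = 5.2e-07). The call in MlxKO was lost without WT library 1, 2 or 3, MlxKO library 2 or 3, MycKO library 1 or 3 or DKO library 1, 2 or 3 (between -0.19 and -0.16), or in a fit of the compared groups alone (-0.18) or with scaling by library totals (-0.15), and the other calls were kept under every alternative. Mdh2, the malate dehydrogenase of the matrix, fell in MycKO and DKO too, -0.34 ± 0.06 (adjusted p = 0.00022) and -0.47 ± 0.06 (adjusted p = 7.3e-06). Neither Cs nor Mdh2 passed in an immortalized knockout, and for both the highest immortalized WT value was that of library 3, 267 CPM for Cs and 309 for Mdh2. Dlst, a subunit of the 2-oxoglutarate dehydrogenase complex, fell in primary DKO cells (-0.22 ± 0.06, adjusted p = 0.0033), and Ogdh, its first subunit, passed nowhere.

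All 4 cytosolic and NADP-linked counterparts of cycle enzymes fell in both primary MycKO and primary DKO cells. Idh2 (ENSMUSG00000030541), the NADP-linked isocitrate dehydrogenase of the matrix, was at 90.5, 91.2 and 86.6 CPM in WT, 83.1, 78.2 and 85.9 in MlxKO, 56.4, 44.3 and 56.2 in MycKO and 58.9, 55.2 and 61.4 in DKO. MycKO and DKO libraries lay far below WT and MlxKO, -0.77 ± 0.08 (adjusted p = 2.1e-06) and -0.60 ± 0.08 (adjusted p = 2e-05). In immortalized cells it was at 152, 199 and 139.5 CPM in WT, 172, 191 and 188 in MlxKO, 137, 129 and 123 in MycKO and 147, 133 and 152 in DKO, and the MycKO change missed the threshold, -0.32 ± 0.13 (adjusted p = 0.055). Zfp710, which covers 29.4% of the exon bases of Idh2 on the opposite strand, was at 14.2 to 22.1 CPM in primary cells and fell by 0.38 on the log2 scale in MycKO cells, where its part in the result was not tested, and its log2 fold change in DKO was 0.07. Idh1 (ENSMUSG00000025950), its cytosolic form, was at 91.9, 85.4 and 92.5 CPM in WT, 114, 109 and 127 in MlxKO, 79.8, 79.9 and 68.2 in MycKO and 68.8, 67.1 and 64.8 in DKO of the primary libraries. MlxKO libraries all lay above WT and MycKO and DKO libraries below, with changes of 0.37 ± 0.08 (adjusted p = 0.0056), -0.24 ± 0.08 (adjusted p = 0.015) and -0.42 ± 0.08 (adjusted p = 0.00021). The MycKO call was lost without WT library 1 or MycKO library 3 (between -0.23 and -0.17). In immortalized cells, at 113, 117 and 77.7 CPM in WT, 58.98, 53.9 and 57.6 in MlxKO, 112, 84.5 and 80.3 in MycKO and 76.9, 88.6 and 98.5 in DKO, all MlxKO libraries lay below WT instead, -0.82 ± 0.17 (adjusted p = 0.0033) and -1.01 without WT library 3.

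Mdh1 (ENSMUSG00000020321), the cytosolic malate dehydrogenase, was at 97.1, 92.1 and 102 CPM in WT, 91.0, 95.3 and 109 in MlxKO, 84.7, 85.9 and 83.9 in MycKO and 80.8, 81.2 and 80.4 in DKO in primary and at 144, 142 and 166 CPM in WT, 127, 106 and 120.5 in MlxKO, 124, 95.5 and 106 in MycKO and 130.4, 143 and 151 in DKO in immortalized cells. Primary MycKO and DKO libraries lay below all WT libraries by -0.19 ± 0.07 (adjusted p = 0.036) and -0.26 ± 0.07 (adjusted p = 0.0051), the first of which was lost without WT library 1 or 3 or MycKO library 1 or 3 (between -0.19 and -0.15), or in a fit of the compared groups alone (-0.19). Immortalized MycKO and MlxKO were lower by -0.47 ± 0.12 (adjusted p = 0.0066) and -0.35 ± 0.12 (adjusted p = 0.035), while DKO overlapped with WT at -0.09 ± 0.12 (adjusted p = 0.62). The MlxKO call was lost without WT library 1 or 3, MlxKO library 2 or 3, MycKO library 3 or DKO library 2 (between -0.38 and -0.28), or in a fit of the compared groups alone (-0.35) or with scaling by library totals (-0.18). Aco1, the cytosolic aconitase, fell in primary MycKO and DKO, -0.19 ± 0.07 (adjusted p = 0.033) and -0.28 ± 0.07 (adjusted p = 0.0022), and passed in no immortalized knockout. Its MycKO call was lost without WT library 1 or 2 or MycKO library 1 or 3 (between -0.19 and -0.14), or in a fit of the compared groups alone (-0.19).

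**Figure D3:**
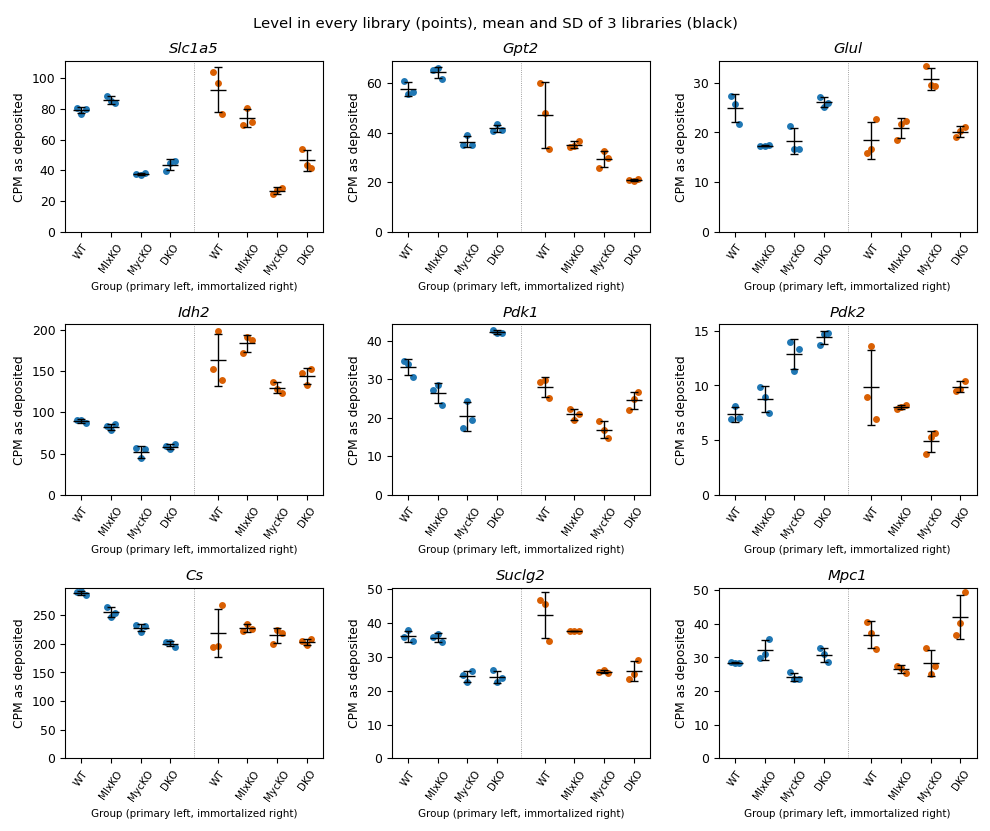
CPM as deposited in each library (points, primary blue, immortalized orange) with the mean and SD of the 3 libraries of a group (black), for 9 of the genes, Pdk1 and Cs among them chosen after their values were seen. Each axis starts at 0, and the primary and immortalized tables were scaled separately. Slc1a5 lay between 36.8 and 46.1 CPM in primary MycKO and DKO libraries and between 76.8 and 88.2 in WT and MlxKO libraries.

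The largest change of any member was that of a glutamine transporter. Slc1a5 (ENSMUSG00000001918; GRCm39 chr7:16515265-16532731, plus strand), the sodium-dependent neutral amino acid transporter that carries glutamine, was at 80.6, 76.8 and 79.7 CPM in WT, 88.2, 85.2 and 83.6 in MlxKO, 37.4, 36.8 and 38.4 in MycKO and 39.7, 44.9 and 46.1 in DKO of the primary libraries. MlxKO libraries lay slightly above WT without passing, and the 6 libraries without Myc lay far below both, -1.05 ± 0.07 (adjusted p = 7.3e-09) in MycKO and -0.85 ± 0.07 (adjusted p = 4.6e-08) in DKO. In immortalized cells it was at 104, 96.8 and 76.5 CPM in WT, 69.3, 80.3 and 71.6 in MlxKO, 24.2, 27.4 and 28.6 in MycKO and 54.1, 43.7 and 41.4 in DKO. Again the libraries without Myc were the lowest, -1.74 ± 0.14 (adjusted p = 1.9e-06) in MycKO (-1.87 without WT library 3) and -0.98 ± 0.14 (adjusted p = 0.00078) in DKO (-1.11 without it). Here DKO exceeded MycKO by 0.77 ± 0.14 (adjusted p = 0.0014), and in primary cells by 0.21 ± 0.07 (adjusted p = 0.037), a call lost without MlxKO library 2, MycKO library 1 or 3 or DKO library 2 or 3 (between 0.17 and 0.22), or in a fit of the compared groups alone (0.21).

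Gpt2 (ENSMUSG00000031700), the mitochondrial alanine aminotransferase, which makes 2-oxoglutarate from glutamate and pyruvate into alanine, was at 61.1, 55.9 and 56.5 CPM in WT, 65.3, 66.1 and 61.9 in MlxKO, 35.3, 39.05 and 35.1 in MycKO and 40.8, 43.4 and 41.01 in DKO of the primary libraries. MycKO and DKO lay below both other groups without overlap, -0.65 ± 0.07 (adjusted p = 1.6e-06) and -0.46 ± 0.07 (adjusted p = 4.3e-05). In immortalized cells Gpt2 was at 60.02, 48.1 and 33.4 CPM in WT, 34.3, 34.5 and 36.8 in MlxKO, 25.8, 32.5 and 29.8 in MycKO and 20.9, 20.6 and 21.2 in DKO. DKO libraries were the lowest, -1.10 ± 0.17 (adjusted p = 0.0015) against WT, and MycKO was lower as well, -0.63 ± 0.17 (adjusted p = 0.011). WT spread widely, from 33.4 to 60.0 CPM with library 3 the lowest, and without that library the changes were -1.32 and -0.86. The MycKO call was lost in a fit of the compared groups alone (-0.63).

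Glul (ENSMUSG00000026473), glutamine synthetase, makes glutamine from glutamate and ammonia. It was at 27.3, 25.8 and 21.7 CPM in WT, 17.3, 17.2 and 17.6 in MlxKO, 21.3, 16.7 and 16.7 in MycKO and 27.2, 25.1 and 25.97 in DKO of the primary libraries. Both single knockouts lay below all WT libraries, -0.43 ± 0.10 (adjusted p = 0.003) in MycKO and -0.49 ± 0.10 (adjusted p = 0.0068) in MlxKO, and DKO overlapped with WT, 0.07 ± 0.10 (adjusted p = 0.62). In immortalized cells, where it was at 15.9, 16.6 and 22.6 CPM in WT, 18.5, 21.8 and 22.2 in MlxKO, 33.4, 29.5 and 29.4 in MycKO and 18.99, 20.2 and 21.2 in DKO, the MycKO libraries alone stood out and Glul rose by 0.73 ± 0.14 (adjusted p = 0.0015). The aspartate aminotransferases Got1 (cytosolic) and Got2 (mitochondrial) fell in primary MycKO (-0.24 and -0.21) and DKO cells (-0.44 and -0.41), and Got1 fell in immortalized MycKO cells too, -0.58 ± 0.12 (adjusted p = 0.0024). The primary MycKO call of Got1 was lost without WT library 1 or MycKO library 1 (between -0.22 and -0.21), and that of Got2 without WT library 2 (-0.17). Glud1, glutamate dehydrogenase, fell in primary DKO cells (-0.30 ± 0.06, adjusted p = 0.0004) with MycKO at -0.02 ± 0.06 (adjusted p = 0.79), and in immortalized MlxKO cells at -0.37 ± 0.09 (adjusted p = 0.0064), lost with scaling by library totals (-0.20).

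The 4 genotypes allow the loss of Myc to be measured a second time, as DKO against MlxKO, in libraries that the comparison of MycKO with WT does not use. DKO and MlxKO cells had both been given 4OHT but came from different floxed lines. In primary cells 21 members fell and 4 rose in DKO against MlxKO, beside 25.9% and 23.3% of all genes (scaling by library totals, which moved the median of all genes by -0.10, gave 25 and 4). In both comparisons 19 members passed, 86.4% of the 22 of the first and 76% of the 25 of the second, where over all genes tested those shares were 72.5% and 62.4%. Of these 19, 16 fell in both, Pdk2 rose in both, and Glul and Pdk1 fell with Mlx intact and rose with Mlx deleted. Over all genes, 6.17% of those that passed in both changed sign. For Slc1a5 the values were -1.05 ± 0.07 and -0.96 ± 0.07, for Gpt2 -0.65 ± 0.07 and -0.61 ± 0.07, and for Suclg2 -0.55 ± 0.08 and -0.55 ± 0.08.

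In immortalized cells DKO against MlxKO gave 5 members lower and 7 higher, beside 13.9% and 16.3% of all genes, and 10 lower and 2 higher with scaling by library totals, which moved the median of all genes by -0.15. The 5 members that passed in both were 33.3% of 15 and 41.7% of 12, beside 34.1% and 54.3% over all genes. Of these, Gpt2, Slc1a5 and Suclg2 fell in both, and Me1 and Mpc1 fell with Mlx intact and rose with Mlx deleted. Over all genes, 65% of those that passed in both changed sign. The rise of Me1, 0.38 ± 0.11, was lost without MlxKO library 2 or 3 or DKO library 2 or 3 (between 0.32 and 0.39), or with scaling by library totals (0.21). Slc1a5 was -1.74 ± 0.14 with Mlx intact and -0.66 ± 0.14 with Mlx deleted.

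Loss of Mlx was likewise measured with Myc intact (MlxKO against WT) and with Myc deleted (DKO against MycKO). In primary cells DKO against MycKO gave 6 members higher and 5 lower, beside 10.6% and 11% of all genes. Of the 2 members that passed in both, Cs fell each time and Glul changed sign, being -0.49 ± 0.10 with Myc intact and 0.50 ± 0.10 with Myc deleted. The 2 were 66.7% of 3 and 18.2% of 11, beside 47.9% and 19.8% over all genes, where 38.6% of the shared calls changed sign. The fall of Cs in DKO against MycKO, -0.19 ± 0.05, was lost without MycKO library 1 or 3 or DKO library 3 (between -0.18 and -0.17). In immortalized cells DKO against MycKO gave 11 higher and 2 lower, beside 14.8% and 14.6%. Both immortalized comparisons of Mlx loss called 7 members, 58.3% of 12 and 53.8% of 13, and 6 of these 7 changed sign. Over all genes the shares were 34.1% and 45.1%, and 83.3% of the genes that passed in both did so. Mpc1, Pdhb, Pdk1, Me1 and Mdh1 fell with Myc intact and rose with Myc deleted, and Idh3b did the opposite. Pcx rose in both. With Myc deleted the values were 0.51 ± 0.13 for Pdk1, 0.41 ± 0.11 for Me1, 0.38 ± 0.12 for Mdh1, 0.37 ± 0.13 for Pdhb and -0.48 ± 0.14 for Idh3b. These calls were lost for Pdk1 without MycKO library 3 or DKO library 3 (between 0.43 and 0.46), for Me1 without DKO library 2 or 3 (between 0.35 and 0.36) and for Mdh1 without MycKO library 2 or 3 or DKO library 2 or 3 (between 0.30 and 0.37). That of Idh3b was lost without MycKO library 1 or 3 or DKO library 2 or 3 (between -0.51 and -0.37), and that of Pdhb without WT library 1, MlxKO library 1, 2 or 3, MycKO library 2 or 3 or DKO library 2 or 3 (between 0.28 and 0.37), or with no filter on low values (0.37) or in a fit of the compared groups alone (0.37).

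Whether the effect of 1 gene depended on the other was tested directly by the interaction, the change on Myc loss with Mlx deleted less that with Mlx intact. In primary cells 3 members passed upward and 3 downward, beside 7.47% and 6.07% of all genes. Pdk1 (1.35 ± 0.15, adjusted p = 1.3e-05), Glul (0.99 ± 0.15, adjusted p = 0.00018) and Pdk4 (0.79 ± 0.20, adjusted p = 0.013) were higher in DKO than the single knockouts add up to. Idh1 (-0.55 ± 0.11, adjusted p = 0.0021), Pdha1 (-0.28 ± 0.07, adjusted p = 0.013) and Glud1 (-0.25 ± 0.08, adjusted p = 0.0496) were lower, of which Glud1 was lost without WT library 1, 2 or 3, MlxKO library 1, 2 or 3, MycKO library 1, 2 or 3 or DKO library 1, 2 or 3 (between -0.28 and -0.20), or by edgeR (-0.23), with a minimum mean of 5 CPM (-0.25), with median-ratio scaling (-0.24), with no filter on low values (-0.25) or with a pseudocount of 0.1 (-0.25). Of the 11 TCA cycle enzymes 0 passed this test in primary cells by limma, edgeR or DESeq2, and 0 had an unadjusted limma p under 0.05, with values between -0.16 and 0.07.

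In immortalized cells 16 members passed upward and 2 downward, beside 23.7% and 23.8% of all genes. Without WT library 3 the counts were 16 and 4, with 56.7% of all genes passing, beside 47.4% with it. Scaling by library totals, which moved the median of all genes by -0.16, gave 10 and 3. Members of the pyruvate dehydrogenase step made up 9 of the 16 with the carrier counted: Mpc1 (1.00 ± 0.20, adjusted p = 0.0017), 4 of 5 subunits (Dld 0.93, Pdhb 0.85, Pdha1 0.38 and Dlat 0.36) and 4 of 6 regulators (Pdp1 1.24, Pdk2 1.11, Pdk1 0.92 and Pdk4 0.88). Slc1a5 (1.08 ± 0.20, adjusted p = 0.001), Me1 (0.94 ± 0.15, adjusted p = 0.0005), Idh1 (0.76 ± 0.24, adjusted p = 0.021) and Mdh1 (0.74 ± 0.17, adjusted p = 0.004) passed upward as well. Idh3b (-0.97 ± 0.20, adjusted p = 0.0023) and Glul (-0.77 ± 0.20, adjusted p = 0.0084) passed downward. The upward calls of Dlat, Fh1, Got1, Idh1, Idh3g and Pdha1 were each lost under at least 1 alternative. Pdk1 and Pdk4 passed upward in both tables, whereas Glul passed upward in primary and downward in immortalized cells and Idh1 and Pdha1 the reverse; the tables were scaled separately and were not tested against each other.

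**Figure D4:**
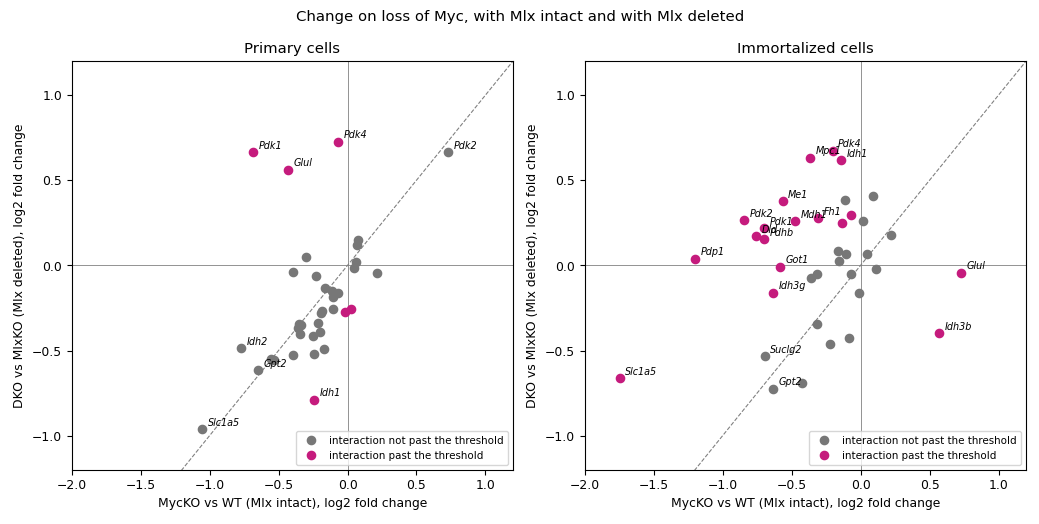
Log2 fold change on loss of Myc with Mlx intact (x axis, MycKO against WT) and with Mlx deleted (y axis, DKO against MlxKO) for the 37 genes in primary (left) and immortalized (right) cells. The dashed line marks equal change, and magenta points passed the interaction test. In primary cells Slc1a5, Gpt2 and Suclg2 lie near the line at the lower left and Pdk1 and Glul above it, and in immortalized cells most magenta points lie above the line, with Glul and Idh3b below it.

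The calls of the separately scaled primary and immortalized tables were set side by side without a test. Of the 22 members that passed in primary MycKO and the 15 in immortalized MycKO cells, 11 passed in both, which is 50% of the first and 73.3% of the second, beside 50.9% and 43.8% over the genes tested in both tables. Of these 11, 9 fell in both (Slc1a5, Gpt2, Suclg2, Pdk1, Pdp1, Idh3g, Mdh1, Got1 and Mpc1), and Glul and Pdk2 went opposite ways. Over the genes tested in both tables, 24.1% of those that passed in both went opposite ways. For DKO 4 of 27 and of 5 passed in both, Slc1a5, Gpt2, Suclg2 and Dld, and each fell in both. That is 14.8% and 80%, beside 22.1% and 56.9% over the genes tested in both tables, where 21.7% of shared calls went opposite ways. For MlxKO 1 member, Idh1, passed in both, rising in primary and falling in immortalized cells. That is 33.3% of 3 and 8.33% of 12, beside 38.7% and 8.86%, and 66% of the shared calls over those genes went opposite ways.

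Of 32 other genes of pyruvate, TCA cycle and glutamine metabolism 31 were tested. In primary cells 13 fell and 2 rose in MycKO, where 21.9% and 20.4% of all genes did, 2 fell and 1 rose in MlxKO, against 5.14% and 3.75%, and 10 fell and 3 rose in DKO, against 25.5% and 24%. Slc25a13, a mitochondrial aspartate-glutamate carrier, was at 21.9, 19.1 and 21.7 CPM in WT, 14.4, 17.9 and 19.7 in MlxKO, 11.3, 11.5 and 9.41 in MycKO and 11.1, 9.93 and 9.79 in DKO of the primary libraries and fell in MycKO and DKO (-0.90 and -0.96). Slc16a1, a lactate and pyruvate carrier of the plasma membrane, was at 47.7, 42.7 and 44.1 CPM in WT, 43.8, 46.8 and 43.3 in MlxKO, 24.1, 22.8 and 23.1 in MycKO and 29.2, 26.7 and 27.7 in DKO and fell in the same groups (-0.91 and -0.67). Slc16a3, a related lactate carrier, was at 92.8, 85.9 and 66.1 CPM in WT, 47.2, 45.03 and 43.5 in MlxKO, 52.8, 41.1 and 57.7 in MycKO and 118, 128 and 127 in DKO, and the DKO libraries lay above WT (0.62) while those of MycKO and MlxKO lay below it (-0.68 and -0.82).

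In immortalized cells 11 of the 31 fell and 6 rose in MycKO, where 23.5% and 24.4% of all genes did, 7 fell and 8 rose in MlxKO, against 19.9% and 19.1%, and 7 fell and 2 rose in DKO, against 8.51% and 10.4%. Slc38a1, a glutamine transporter, was at 159.8, 125 and 128 CPM in WT, 83.8, 89.2 and 86.2 in MlxKO, 68.5, 94.9 and 89.7 in MycKO and 25.02, 30.8 and 24.2 in DKO. All 9 knockout libraries lay below WT and those of DKO were the lowest, with changes of -2.32 ± 0.14 (adjusted p = 1.7e-06) in DKO, -0.70 in MycKO and -0.66 in MlxKO, so that it was lower with Myc intact as well. Slc16a3 was at 6.03, 6.49 and 11.9 CPM in WT, 11.1, 19.6 and 16.8 in MlxKO, 34.2, 34.1 and 35.9 in MycKO and 20.9, 16.2 and 17.8 in DKO and rose in MycKO, 2.02 ± 0.24 (adjusted p = 3.6e-05). Its DKO libraries also lay above all WT libraries, and MlxKO overlapped with WT. Slc16a1 was at 105, 83.5 and 114 CPM in WT, 81.8, 70.1 and 72.8 in MlxKO, 28.9, 25.4 and 27.3 in MycKO and 42.6, 48.8 and 49.6 in DKO and fell in MycKO, -1.84 ± 0.13 (adjusted p = 5.8e-07). Its DKO libraries, and those of MlxKO by less, also lay below all WT libraries.

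A processed pseudogene was the gene that shared most stretches of 50 bases with 7 members. The share of the member's stretches was between 5.80% and 13.0% for Mpc1, Pdhb, Suclg2, Me1, Glul and Got2 and 0.575% for Gpt2, and no row of the tables bears the names of those copies. Reads from such copies cannot be told apart from the members' own reads in these stretches.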

How the data were processed

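RNA was measured by poly-A RNA sequencing with directional libraries on an Illumina NovaSeq in 24 libraries, 3 for each of 4 genotypes of primary and of immortalized MEFs. The authors used CLC Genomics Workbench to align the reads to GRCm39, and they deposited for each gene a signal named CPM in the file headers, that is reads per gene scaled for depth, with a further scaling between libraries, so that columns do not share 1 sum. All nonzero values were whole multiples of the worth of 1 read (tolerance 0.1 reads), so that reads could be recovered. Column names were matched to groups, and no other value columns were present.

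Genes of at least 1 CPM in 3 or more of 12 libraries were fitted per table with limma 3.58.1 (trend) in R 4.3.3 on log2(CPM + 1), all 4 groups in 1 fit. Fold changes are on that scale, which understates those of low genes. Two-sided p-values were adjusted by Benjamini and Hochberg over all genes tested, with a threshold of 0.05. An exact permutation test of 3 against 3 libraries cannot go below p = 0.1 and was not used. Alternatives were edgeR 4.0.16 and DESeq2 1.42.0 on recovered reads, another pseudocount, filters and scalings, the compared groups alone, and each library left out. The fits were tested on simulated data. Library numbers are column order within a group. Depth is given as reads on genes, and the worth of 3 reads covers counting error only.

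The 37 members, the other gene lists and the alternatives were chosen with earlier results of these data known. Values in every library are given for the 3 members of each role with the largest change against WT among those past the threshold, and for up to 3 other pathway genes per table. Exon lengths and overlaps came from the GRCm39 annotation and promoter windows from RefSeq on GRCm38.p6. Within groups no libraries agreed within sampling noise.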

Additional observations from a re-analysis of the deposited data

Results flagged for a closer look

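The effect of Myc loss with Mlx deleted less that with Mlx intact, tested as an interaction by limma over all genes of a table, passed the threshold for 6 members in primary and 18 in immortalized cells, and each is given here as a log2 value. In primary cells it was 1.35 for Pdk1, 0.99 for Glul and 0.79 for Pdk4, and -0.25 for Glud1, -0.28 for Pdha1 and -0.55 for Idh1. In immortalized cells it was 1.24 for Pdp1, 1.11 for Pdk2, 1.08 for Slc1a5, 1.00 for Mpc1, 0.94 for Me1, 0.93 for Dld, 0.92 for Pdk1, 0.88 for Pdk4, 0.85 for Pdhb, 0.76 for Idh1, 0.74 for Mdh1, 0.58 for Fh1, 0.57 for Got1, 0.48 for Idh3g, 0.38 for Pdha1 and 0.36 for Dlat. It was -0.77 for Glul and -0.97 for Idh3b there.

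Several of these calls depended on single libraries or on the scaling. In immortalized cells Dlat was lost without WT library 3, MlxKO library 1, 2 or 3, MycKO library 2 or 3 or DKO library 2 or 3 (between 0.29 and 0.40), or by edgeR (0.35) or with scaling by library totals (0.19). Fh1 was lost without WT library 1 or 3, MlxKO library 1, 2 or 3, MycKO library 2 or 3 or DKO library 2 or 3 (between 0.44 and 0.62), or with no filter on low values (0.58) or with scaling by library totals (0.41). Idh1 was lost without WT library 1, MlxKO library 2, MycKO library 3 or DKO library 3 (between 0.67 and 0.72), or with scaling by library totals (0.59). Idh3g was lost without WT library 1, MlxKO library 2, MycKO library 2 or 3 or DKO library 2 or 3 (between 0.41 and 0.46), or with scaling by library totals (0.30). Pdha1 was lost without MlxKO library 2, MycKO library 3 or DKO library 2 or 3 (between 0.33 and 0.39), or with scaling by library totals (0.20). Got1 was lost with scaling by library totals (0.40).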

How the results depend on the processing

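Of 169 calls of a member in a comparison, 118 kept their direction and their side of the threshold under every alternative run for them, 51 lost the threshold under at least 1 and 0 reversed. DESeq2 kept all 169 and edgeR 164, while scaling by library totals lost 21 and fits of the compared groups alone, which an interaction does not allow, lost 14 of the 145 other calls. The count of members called in immortalized MlxKO against WT was 12, and 7 with scaling by library totals. That in immortalized DKO against WT was 5, and 2 in a fit of these groups alone, and that in immortalized DKO against MlxKO was 12, and 19 in such a fit. The cause was not tested. Leaving out 1 library at a time gave 5 to 18 members in immortalized MlxKO against WT, with 5 and 6 without MlxKO library 2 or 3, 7 without WT library 1 and 18 without WT library 3. It gave 4 to 7 in immortalized DKO against WT. It gave 6 to 16 in immortalized DKO against MycKO (main 13), with 6 and 8 without DKO library 3 or 2 and 8 without MycKO library 3. It gave 6 to 16 in immortalized DKO against MlxKO, with 6 and 7 without DKO library 3 or 2 and 7 without MlxKO library 2 or 3. No other count moved by more than 1.5 times, with 17 to 24 in primary MycKO and 23 to 28 in primary DKO against WT. No paired analysis was possible because the column names of the deposited tables carry no number that ties a library to a replicate number of the labels. Changes within the spread of 3 libraries cannot be seen at this number of samples.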
